A study of Homo sapiens with 9 samples.

Results

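The genes described here are 10 components and targets of the TGF-beta and bone morphogenetic protein (BMP) pathways, taken by symbol from the 28307 genes of the deposited count table and followed in all 9 libraries of the series. They are the ligand BMP4, the receptor BMPR2, the decoy receptor BAMBI, the inhibitors SMAD6, SMAD7 and SKIL, and the target genes ID1, ID2, ID3 and TGFBI. All 10 had enough reads to be tested, among 15619 tested genes. The libraries were made from SW620, an established cell line grown from a lymph node metastasis of a human colon adenocarcinoma, labelled wild type. The cells of all groups were kept in suspension in Poly-HEME coated low-attachment plates, in DMEM/F12 with N2, insulin, basic FGF and EGF. The first group received 120 µM streptomycin (SM) for 48 h, the second 120 µM dihydrostreptomycin (DSM) for 48 h, and the third was left untreated for the same time, with 3 libraries in each. SM is an aminoglycoside antibiotic, and DSM carries an alcohol where SM carries the aldehyde of its streptose sugar. The design text calls the concentration an EC50 and the replicates biological. All libraries come from 1 cell line, so the spread between them is that of repeated cultures of 1 line. The untreated cells are the only control for both compounds, so the comparisons of SM and of DSM with untreated cells share their controls.

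Ligands of the TGF-beta family bring together type I and type II receptor kinases, which phosphorylate receptor-regulated SMAD proteins. SMAD2 and SMAD3 carry the TGF-beta and activin signal and SMAD1 and SMAD5 the BMP signal, and both sets use SMAD4 as a shared partner in the nucleus. The ID genes are immediate targets of the BMP branch, while SMAD6, SMAD7, BAMBI and SKIL are induced by the pathway and limit it. In the normal colon, BMP signals are strongest towards the top of the crypt and favour differentiation of the epithelium over stem cell renewal.

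The promoter windows of 6 of the genes are printed because their mRNAs carry the comparisons that follow or, for SMAD6, because of its SMAD palindrome. Each runs from 250 bases before to 50 bases after a transcription start, 5′ to 3′ on the gene's strand, from RefSeq on GRCh38.p14. The windows lie at chr14:53955001-53955300 (minus strand, the first of the 3 listed starts of BMP4), chr2:202376077-202376376 (plus strand, BMPR2), chr10:28677271-28677570 (plus strand, BAMBI), chr15:66701986-66702285 (plus strand, SMAD6), chr20:31605039-31605338 (plus strand, ID1) and chr5:136028738-136029037 (plus strand, TGFBI). Capitals mark CAGAC on either strand (printed as CAGAC or GTCTG), the core of the SMAD binding element, the palindrome GTCTAGAC, and GGCGCC, a GC-rich SMAD motif.
BMP4: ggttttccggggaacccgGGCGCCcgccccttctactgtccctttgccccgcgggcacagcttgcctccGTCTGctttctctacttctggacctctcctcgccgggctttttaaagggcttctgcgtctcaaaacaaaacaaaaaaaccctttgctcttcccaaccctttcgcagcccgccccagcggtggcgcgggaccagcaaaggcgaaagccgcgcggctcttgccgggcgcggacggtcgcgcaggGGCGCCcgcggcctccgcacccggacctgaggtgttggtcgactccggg
BMPR2: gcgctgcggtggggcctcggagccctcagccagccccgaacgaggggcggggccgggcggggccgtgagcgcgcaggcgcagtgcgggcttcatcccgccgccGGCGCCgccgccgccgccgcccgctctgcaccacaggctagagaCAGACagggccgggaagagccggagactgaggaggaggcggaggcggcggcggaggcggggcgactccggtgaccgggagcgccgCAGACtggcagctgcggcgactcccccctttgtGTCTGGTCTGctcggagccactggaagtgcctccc
BAMBI: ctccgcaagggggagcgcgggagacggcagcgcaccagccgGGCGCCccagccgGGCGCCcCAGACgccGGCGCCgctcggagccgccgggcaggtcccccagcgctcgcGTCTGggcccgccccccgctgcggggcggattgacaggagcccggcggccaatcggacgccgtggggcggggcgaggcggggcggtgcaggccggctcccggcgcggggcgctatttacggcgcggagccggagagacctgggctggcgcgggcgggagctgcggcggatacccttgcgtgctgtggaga
SMAD6: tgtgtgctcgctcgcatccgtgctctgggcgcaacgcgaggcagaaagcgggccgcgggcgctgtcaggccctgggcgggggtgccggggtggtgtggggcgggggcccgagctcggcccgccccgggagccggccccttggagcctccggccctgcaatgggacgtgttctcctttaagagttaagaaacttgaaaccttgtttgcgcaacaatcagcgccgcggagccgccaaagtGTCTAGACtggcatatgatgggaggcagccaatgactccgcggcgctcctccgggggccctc
ID1: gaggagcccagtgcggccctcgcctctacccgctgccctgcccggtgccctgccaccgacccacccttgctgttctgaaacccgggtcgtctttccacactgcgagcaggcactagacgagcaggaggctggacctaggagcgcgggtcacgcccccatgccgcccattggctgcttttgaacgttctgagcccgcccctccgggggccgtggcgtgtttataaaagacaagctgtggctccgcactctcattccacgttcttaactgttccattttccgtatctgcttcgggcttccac
TGFBI: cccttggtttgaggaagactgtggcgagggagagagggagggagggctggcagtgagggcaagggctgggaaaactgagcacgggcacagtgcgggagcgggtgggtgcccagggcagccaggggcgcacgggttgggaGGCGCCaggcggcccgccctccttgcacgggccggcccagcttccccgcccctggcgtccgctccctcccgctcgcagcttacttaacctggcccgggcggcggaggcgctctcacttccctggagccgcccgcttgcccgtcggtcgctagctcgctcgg

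All 10 genes matched the RefSeq table, with 14 windows in all, since BMP4 and SMAD7 have 3 listed starts each. For the first BMP4 start and for BMPR2, the stretch after the start was not found whole in any transcript of the gene in another annotation, GENCODE. Positions in those windows rest on the RefSeq start alone. In all the other windows the stretch was found. CAGAC was present in 9 of the 14 windows and in 45.3% of 35116 windows of the same length. BMPR2 held 4 copies, at -103 to -99, -18 to -14, 16 to 20 and 21 to 25 from the start, the last 2 of them side by side. The palindrome was found in 0.202% of all windows and, among the 14, in that of SMAD6 at -12 to -5. GGCGCC was in 19.2% of all windows and in 5 of the 14, among them 3 copies in BAMBI at -209, -196 and -181. No marked motif is in the ID1 window printed here, and nothing about any factor follows from its letters. These matches are a description of the sequence.

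Total counts lay between 39315662 in SM replicate 2 and 65562227 in untreated replicate 1, and 18316 to 19613 genes had at least 1 read. The epithelial label was carried by 9 of 12 colon epithelial markers above 1 CPM (counts per 1000000 reads of tested genes, TMM-scaled), led by KRT8, KRT18 and KRT19, with KRT20, CDX1 and LGALS4 near 0. Summed over the 12, they reached 11310 to 13554 CPM in SM, 11602 to 14562 CPM in DSM and 11834 to 14885 CPM in untreated libraries. Of the fibroblast markers 2 of 10 exceeded 1 CPM (COL1A1 and LUM, with COL3A1, DCN and FAP at 0), of the endothelial 2 of 7 and of the leukocyte 1 of 8 (LYZ, with PTPRC at 0.0402 CPM on average). The summed fibroblast level ran from 12.8 to 25.3 CPM in SM, 16.6 to 26.2 CPM in DSM and 16.0 to 27.2 CPM in untreated libraries, and the part of these markers in any result was not tested. In a bulk sample, fewer cells of a kind and less RNA per cell cannot be told apart.

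In SM-treated against untreated cells, the test with group as the only term called 0 of the 10 genes (edgeR quasi-likelihood test with Benjamini-Hochberg adjustment over all tested genes), against 0.0192% of all tested genes called. At an unadjusted p below 0.05 there were 3 of the 10, beside 365 of all 15619 tested genes. DESeq2 and limma voom with group alone also called 0 of the 10. Libraries with the same replicate number deviated together, and with that number as a replicate block 5 of the 10 passed and fell, namely BMP4, BMPR2, BAMBI, ID1 and TGFBI, against 2.74% of all tested genes called and 1.54% called lower. The same 5 genes passed in the blocked DESeq2 and voom fits. Their decreases were small, between 11.4% and 14.3%. All 10 estimates were below 0, with a median log2 fold change of -0.18 beside -0.00091 over all tested genes. The 10 genes were chosen with earlier results of these data known, so contrasts with all tested genes describe them and are no test of the pathway. The other 70 tested pathway genes had a blocked median of -0.02, with 32 estimates above 0 and 38 below. In 8 of the 10 genes SM was lower in each of the 3 same-numbered pairs, as it was in 18.9% of all tested genes, and in ID1 and ID3 the SM and untreated libraries did not overlap, with SM lower, as in 3.46% of all tested genes.

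**Figure D1:**
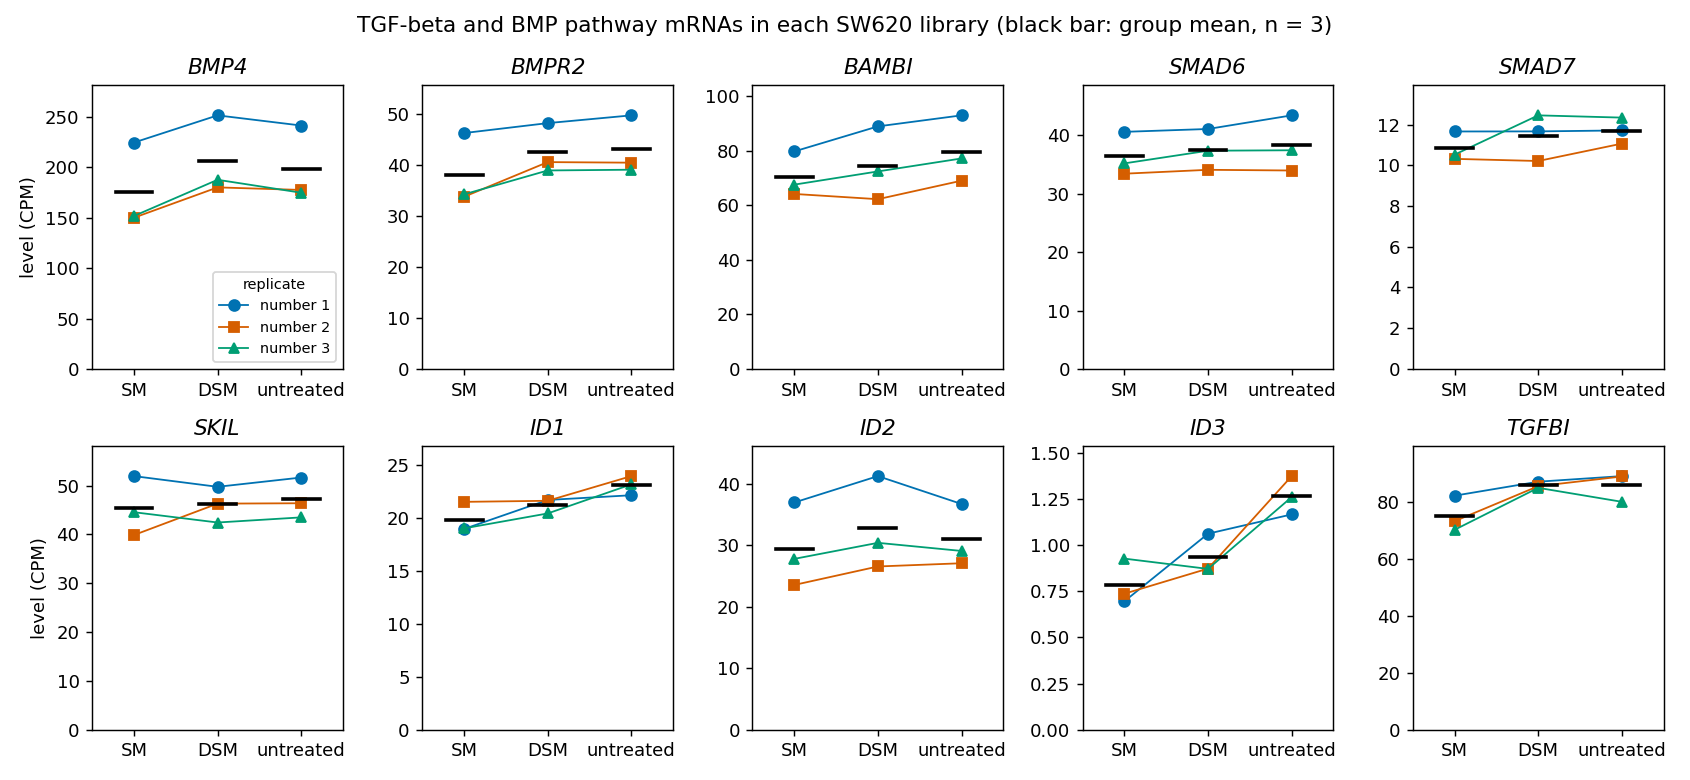
Level of each of the 10 mRNAs (CPM, linear axes from 0) in the 3 SM, 3 DSM and 3 untreated libraries, with lines joining libraries of 1 replicate number and a black bar at each group mean (n = 3). The libraries numbered 1 sit above the others for BMP4, BMPR2, BAMBI, SMAD6, ID2 and SKIL in every group. Every gene has its lowest mean in SM, and all but BMP4 and ID2 have their highest mean in untreated cells.

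BMP4, on chr14:53949736-53956891 (minus strand), encodes the BMP ligand of the set. It was measured at 225, 150.0 and 152 CPM in SM replicates 1, 2 and 3, at 252, 180.1 and 188 CPM in the DSM replicates and at 241, 178 and 175 CPM in the untreated replicates. The groups overlap because the libraries numbered 1 are high in all 3, but within each number SM is the lowest and DSM the highest. The means were 175 ± 42.6 CPM in SM, 206 ± 39.3 CPM in DSM and 198 ± 37.7 CPM in untreated cells (SD, n = 3 each). With the block, SM lay 11.9% below untreated (log2 fold change -0.18, SE 0.03, adjusted p = 0.0025), and without it the log2 fold change of -0.17 had an SE of 0.20. The blocked call was lost only without untreated replicate 2 (adjusted p = 0.0779) among the 9 libraries left out in turn.

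BMPR2, on chr2:202376327-202567749 (plus strand), encodes the type II receptor for BMPs. Its level was 46.3, 33.8 and 34.3 CPM in SM, 48.3, 40.6 and 39.0 CPM in DSM and 49.8, 40.5 and 39.1 CPM in untreated replicates 1 to 3. SM replicates 2 and 3 are the lowest libraries of all 9, and DSM and untreated values lie close together within each number. SM fell by 0.18 on the log2 scale against untreated with the block (SE 0.04, adjusted p = 0.0235, 11.7% lower), a call that 5 of the left-out libraries ended. Those were SM replicates 2 and 3 (adjusted p = 0.104 and 0.1155) and untreated replicates 1, 2 and 3 (adjusted p = 0.121, 0.183 and 0.181). The annotation places 2 processed pseudogenes within BMPR2, neither of them a gene of the count table.

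BAMBI, on chr10:28677521-28682932 (plus strand), encodes a transmembrane pseudoreceptor without a kinase domain that dampens signalling by the family. SM replicates 1 to 3 had 79.8, 64.2 and 67.6 CPM, DSM replicates 89.0, 62.3 and 72.5 CPM, and untreated replicates 93.1, 69.1 and 77.2 CPM. Each SM library was below the untreated library of its number, and so was each DSM library, though the groups overlap. The blocked log2 fold change of SM against untreated was -0.18 (SE 0.04, adjusted p = 0.0104, 11.4% lower). That call did not survive leaving out SM replicate 1 or 3 (adjusted p = 0.0816 and 0.0753) or untreated replicate 1, 2 or 3 (adjusted p = 0.108, 0.0802 and 0.124).

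The intracellular inhibitors did not pass in any comparison. SMAD6, on chr15:66702236-66782849 (plus strand), inhibits mainly the BMP branch and had 40.6, 33.4 and 35.2 CPM in SM, 41.1, 34.1 and 37.4 CPM in DSM and 43.4, 34.0 and 37.4 CPM in untreated replicates 1 to 3. The order of its libraries followed the replicate number in each group, with number 1 highest and number 2 lowest. SM against untreated gave a blocked log2 fold change of -0.07 with a 95% interval from -0.16 to 0.02 (adjusted p = 0.464). SMAD7, on chr18:48919853-48950965 (minus strand), blocks type I receptors of both branches and ranged from 10.3 to 11.7 CPM in SM, from 10.2 to 12.4 CPM in DSM and from 11.1 to 12.3 CPM in untreated libraries. Its groups overlap, and its blocked log2 fold change of -0.11 had an interval from -0.26 to 0.03 (adjusted p = 0.489). SKIL, on chr3:170357715-170396849 (plus strand), encodes SnoN, a co-repressor of SMAD complexes, and stood at 52.0, 39.9 and 44.6 CPM in SM, 49.8, 46.3 and 42.4 CPM in DSM and 51.7, 46.4 and 43.5 CPM in untreated replicates 1 to 3. Only SM replicate 2 was below its untreated partner, and the blocked log2 fold change was -0.05 (interval -0.15 to 0.05, adjusted p = 0.687).

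The ID genes encode helix-loop-helix proteins without a DNA-binding region that sequester E proteins. ID1, on chr20:31605289-31606510 (plus strand), had 18.9, 21.5 and 19.0 CPM in SM, 21.7, 21.6 and 20.4 CPM in DSM and 22.1, 23.9 and 23.1 CPM in untreated replicates 1 to 3. No treated library of either kind reached the lowest untreated one. Means were 19.8 ± 1.46 CPM in SM, 21.2 ± 0.712 CPM in DSM and 23.1 ± 0.905 CPM in untreated cells (SD, n = 3 each). SM was 14.3% lower than untreated with the block (log2 fold change -0.22, SE 0.05, adjusted p = 0.0217), while group alone gave an unadjusted p of 0.0104 in edgeR's quasi-likelihood test and an adjusted p of 0.9999. The blocked call ended without SM replicate 1 or 3 (adjusted p = 0.0899 and 0.1245) and without untreated replicate 1, 2 or 3 (adjusted p = 0.0863, 0.121 and 0.273).

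ID3, on chr1:23557926-23559501 (minus strand), was near the lower limit of the tested genes, with 29 to 78 reads per library. SM replicates 1 to 3 had 0.696, 0.737 and 0.927 CPM, DSM replicates 1.06, 0.873 and 0.871 CPM, and untreated replicates 1.17, 1.37 and 1.2601 CPM. Every treated library lay below every untreated one, and SM and DSM overlapped. SM against untreated gave the largest estimate of the 10 genes, a blocked log2 fold change of -0.68 (SE 0.21, interval -1.10 to -0.25), but did not pass (adjusted p = 0.0825 with the block and 0.9999 without it, unadjusted p = 0.0049 without it, edgeR). ID2, on chr2:8682056-8684461 (plus strand), went with its replicate number instead. It had 37.0, 23.6 and 27.8 CPM in SM, 41.3, 26.6 and 30.4 CPM in DSM and 36.8, 27.1 and 29.1 CPM in untreated replicates 1 to 3, and its blocked log2 fold change of -0.08 did not pass (interval -0.18 to 0.02, adjusted p = 0.483). An antisense gene, ID2-AS1, overlaps ID2 and had 50 reads over all 9 libraries, and the strand setting of the counting is not given in the sources used here.

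TGFBI, on chr5:136028988-136063818 (plus strand), encodes a secreted matrix protein named for its induction by TGF-beta. Its level was 82.2, 73.2 and 70.2 CPM in SM, 87.1, 85.5 and 84.9 CPM in DSM and 89.0, 88.9 and 80.0 CPM in untreated replicates 1 to 3. The SM libraries are the lowest of their number in all 3 cases, and they do not overlap with the DSM libraries, while SM replicate 1 lies above untreated replicate 3. SM fell by 0.19 on the log2 scale against untreated with the block (SE 0.04, adjusted p = 0.0057, 12.5% lower), and with group alone the unadjusted p was 0.0142 in edgeR's quasi-likelihood test (adjusted p = 0.9999). Without SM replicate 3 or untreated replicate 2 the blocked adjusted p was 0.0644 and 0.138.

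The count of 5 members called in SM against untreated with the block was itself sensitive to single libraries. It was 3, 4 and 1 without SM replicate 1, 2 and 3, and 2, 0 and 2 without untreated replicate 1, 2 and 3, while leaving out any DSM library kept it at 5. The count over all tested genes was 428 in the blocked fit of all 9 libraries. With 1 library left out it ran from 0 to 569 over the blocked and unblocked fits together. The 0 came from the unblocked fit without SM replicate 2. Apart from the highest, the counts over all tested genes in the single blocked fits are not reported here. The highest value came from the blocked fit without SM replicate 1, in which the members called fell to 3. Whether these shifts are particular to the members was not tested. With all 3 libraries numbered 1 left out, BMP4, BMPR2 and TGFBI passed with the block and 0 members without it, at 308 and 73 called genes in all.

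In DSM-treated against untreated cells, 0 of the 10 genes passed with or without the block in edgeR's quasi-likelihood test, and 0% of all tested genes were called (0 of 15619 in both fits). At an unadjusted p below 0.05 there were 3 members with the block and 1 without it, beside 650 and 103 of all tested genes, and DESeq2 and limma voom called 0 genes in both forms. The 3 were ID1 with a log2 fold change of -0.12 (interval -0.23 to -0.01), ID3 with -0.43 (interval -0.84 to -0.02) and BAMBI with -0.10 (interval -0.18 to -0.02), each with an adjusted p of 0.999. In ID1 and ID3 the DSM and untreated libraries did not overlap, with DSM lower, as in 2.22% of all tested genes. DSM was lower in each of the 3 pairs for 4 members (ID1, ID3, BAMBI and SKIL), as in 15.1% of all tested genes. It was higher in each pair for 1 member, BMP4, as in 14.3% of all tested genes. The log2 fold change of BMP4 was 0.06 (interval -0.01 to 0.13). For TGFBI the estimate was -0.00070 (interval -0.08 to 0.08) and for BMPR2 -0.02 (interval -0.11 to 0.07). The median over the 10 was -0.03.

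SM and DSM were compared directly at the matched concentration and time, in 1 pair of compounds that differ in the aldehyde of SM and the alcohol of DSM. With group alone 0 of the 10 genes passed in edgeR's quasi-likelihood test, and 1 of them, TGFBI, had an unadjusted p below 0.05. Of all 15619 tested genes 0% were called in that fit, with 396 at an unadjusted p below 0.05. DESeq2 with group alone called 0 of the 10 and 11 of all genes, and voom 0 of either. With the replicate block 3 members passed and were lower in SM, namely BMP4, BMPR2 and TGFBI, against 3.88% of all tested genes called and 2.15% called lower. In 6 members SM was lower in each of the 3 pairs, as in 16.2% of all tested genes, and only in TGFBI did the SM and DSM libraries not overlap, as in 3.16% of all tested genes with SM lower.

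BMP4 mRNA was 15.5% lower in SM than in DSM (blocked log2 fold change -0.24, SE 0.03, adjusted p = 0.0001) and this call held without each of the 9 libraries. TGFBI was 12.5% lower (log2 fold change -0.19, SE 0.04, adjusted p = 0.0050), and its call ended without SM replicate 3 or DSM replicate 3 (adjusted p = 0.0573 and 0.0955). BMPR2 was 10.8% lower (log2 fold change -0.16, SE 0.04, adjusted p = 0.0376). Its call was the least stable of the 3: it ended without SM replicate 2 or 3 (adjusted p = 0.167 and 0.136), without DSM replicate 2 or 3 (0.229 and 0.162) and without untreated replicate 1, 2 or 3 (0.0672, 0.057 and 0.07545), and blocked DESeq2 called BMP4 and TGFBI alone. The other 7 genes did not pass, which does not show that the compounds act alike on them. For ID1 the difference was -0.10 (interval -0.22 to 0.01), for BAMBI -0.07 (interval -0.15 to 0.01) and for ID3 -0.25 (interval -0.70 to 0.21). ID2 gave -0.15 (interval -0.25 to -0.05, adjusted p = 0.0888), SMAD6 -0.04 (interval -0.13 to 0.04), SMAD7 -0.08 (interval -0.23 to 0.07) and SKIL -0.02 (interval -0.12 to 0.08).

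**Figure D2:**
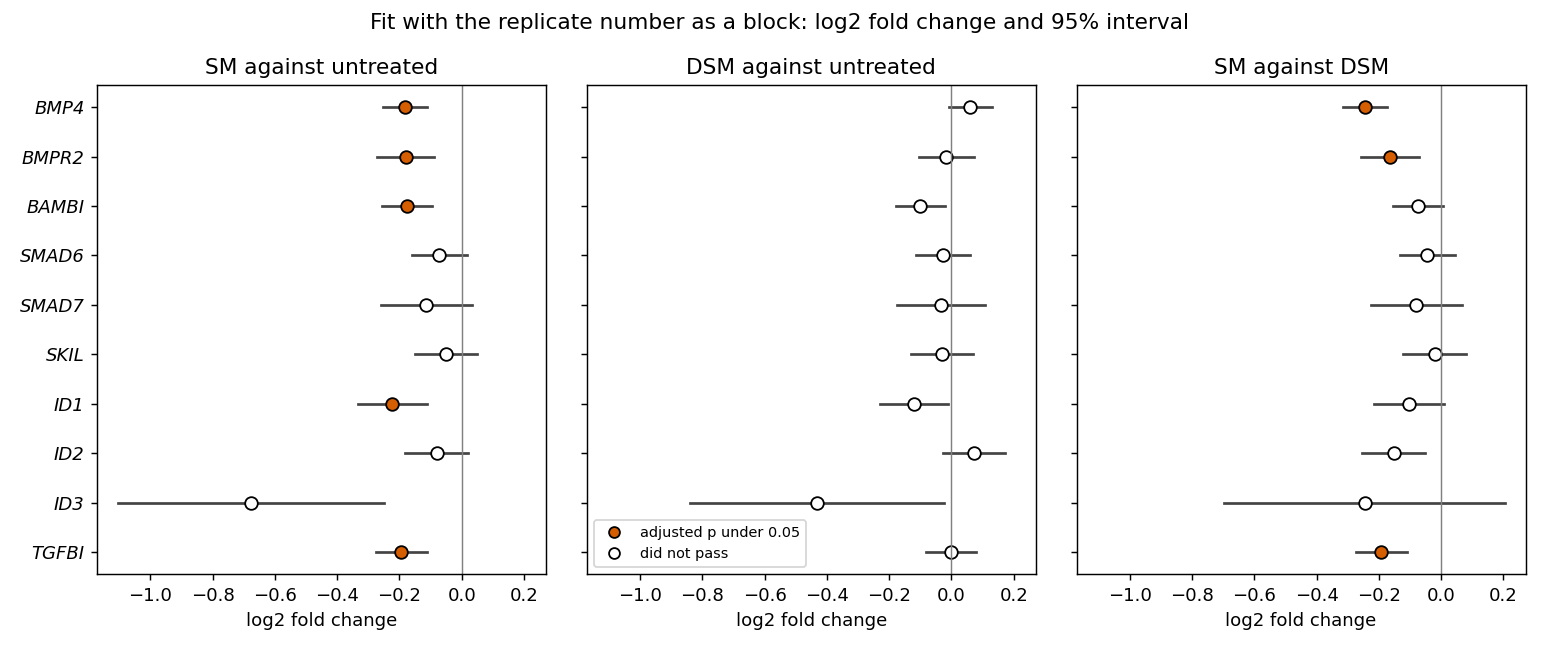
Log2 fold change of each of the 10 mRNAs with its 95% interval, from the blocked edgeR fit, for SM against untreated, DSM against untreated and SM against DSM. Orange points passed at an adjusted p under 0.05: 5 genes in the left panel, 0 in the middle one and 3 in the right one.

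The order of the group means was SM, then DSM, then untreated from low to high for ID1, ID3, BAMBI, BMPR2, TGFBI, SMAD6, SMAD7 and SKIL. BMP4 and ID2 had DSM above untreated cells, and SM was the lowest mean for all 10. With all 9 libraries, neighbouring means differed past edgeR's test with the block and not with group alone, between SM and DSM for BMPR2 and TGFBI and between SM and untreated for BMP4. Without the libraries numbered 1, BMP4 and TGFBI passed in SM against DSM with group alone as well. That fit holds only replicates 2 and 3 of each group. It called 186 genes in all, where the fit of all 9 libraries with group alone called 0. For none of the 10 genes did DSM and untreated cells differ past the test in any fit run.

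The genes divided by how much of their spread over the 9 libraries followed the group and how much the replicate number. For ID3, ID1 and TGFBI the group took 80.8%, 69.0% and 63.3% of the sum of squares of log2 CPM, against 19.5% over all tested genes. The replicate number took 92.7% for SMAD6, 91.2% for ID2, 82.8% for BAMBI, 82.2% for BMP4, 76.6% for BMPR2 and 73.5% for SKIL, against 48.0% over all tested genes. SMAD7 had 51.2% by number and 21.3% by group. Replicate 1 exceeded the mean of the other two by 0.57 in SM, 0.45 in DSM and 0.45 in untreated cells on the log2 scale for BMP4, and by 0.53, 0.54 and 0.39 for ID2. ID1 showed differences of -0.09, 0.05 and -0.09 in the same groups. The labels do not say what a replicate number shares.

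**Figure D3:**
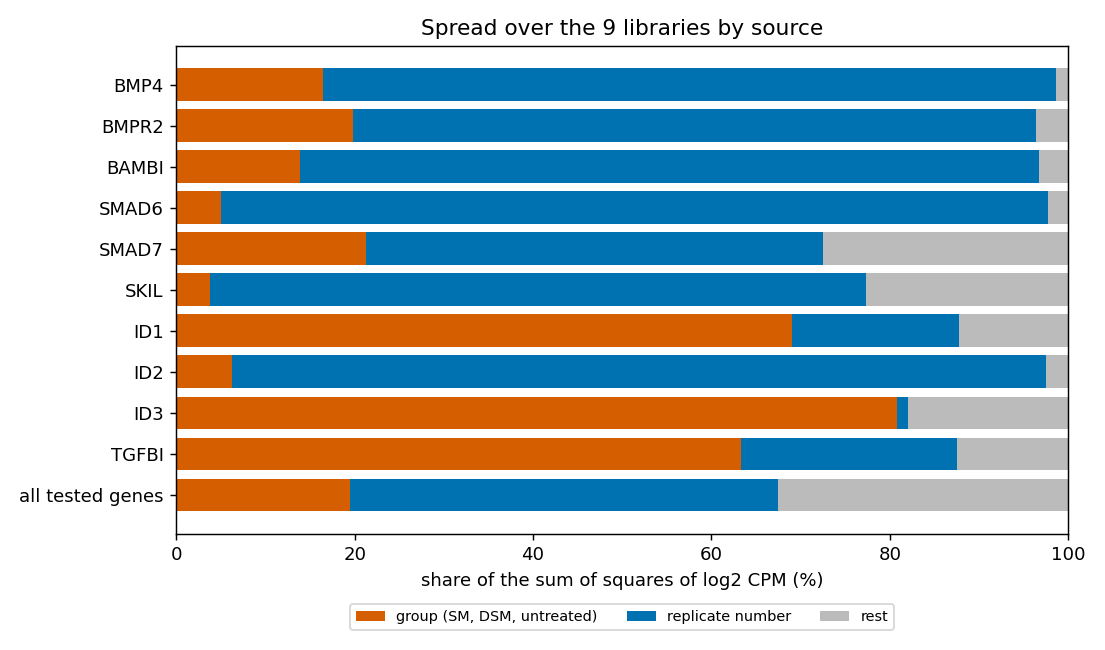
Share of the sum of squares of log2 CPM over the 9 libraries taken by group, replicate number and the rest (%, stacked bars), for each of the 10 genes and for all tested genes together. The group share is 80.8% for ID3, 69.0% for ID1 and 63.3% for TGFBI, and 21.3% or less for the other 7 genes.

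Over the 9 libraries, which share replicate numbers and treatments, BMP4 and BMPR2 followed each other with Pearson's r = 0.98 and BAMBI and SMAD6 with r = 0.96, while ID1 and ID3 had r = 0.77 and ID1 and ID2 r = -0.18. These are descriptions over 9 libraries. Among 10293 other genes of at least 5 CPM (10294 for ID3), the patterns most like each member were those of EPHB2 and FILIP1L for BMP4 (r = 0.99 each), LINC00641 and C6orf15 for BMPR2 (0.99 each), SUCLG1 and NDUFB8 for BAMBI (0.99 and 0.98), SFRP5 and PTRHD1 for SMAD6 (0.98 each), DNMT3B and BMP7 for SMAD7 (0.96 and 0.94) and WDR44 and TIMM23 for SKIL (0.99 and 0.98). For the targets they were CTSC for TGFBI (0.98), NDUFAF8 and KDELR2 for ID1 (0.93 and 0.92), TOX3 and HDAC7 for ID2 (0.99 each) and FPGS and TSPAN4 for ID3 (0.96 and 0.89). The nearest patterns of ID1 and ID3 were less close than those of BMP4, BMPR2 or ID2.

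The rest of the pathway was read from a list of 103 genes in 7 roles, of which 70 besides the members were tested. In SM against untreated cells 0 of the 70 passed with group alone (1 at an unadjusted p below 0.05, edgeR's quasi-likelihood test). With the block 1 was higher and 4 lower, where 2.74% of all tested genes were called, with a median log2 fold change of -0.02 beside the -0.18 of the 10 members. In DSM against untreated cells 0 of the 70 passed in either fit, 3 with the block and 0 without it at an unadjusted p below 0.05. In SM against DSM 0 of the 70 passed with group alone, 0 of them at an unadjusted p below 0.05, and with the block 1 was higher and 5 lower, where 3.88% of all tested genes were called.

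Of 13 other tested ligands, 0 were higher and 1 lower in SM against untreated with the block, and 0 higher and 2 lower in SM against DSM. Over all tested genes, 1.54% and 2.15% were called lower in these comparisons with the block. The same shares apply to the counts of the other roles below. BMP5, a BMP ligand, was lower in SM with the block against untreated (log2 fold change -0.26, adjusted p = 0.0408) and against DSM (-0.30, adjusted p = 0.0118). It had 13.6, 9.35 and 8.69 CPM in SM, 15.1, 12.9 and 11.0 CPM in DSM and 15.4, 11.8 and 10.7 CPM in untreated replicates 1 to 3. GDF11, a ligand of the activin branch, was lower in SM than in DSM (-0.19, adjusted p = 0.0356). Of 9 tested secreted modulators, 1 was lower in each of these comparisons and 0 higher. TWSG1, a BMP-binding protein, was lower in SM against untreated (-0.23, adjusted p = 0.0233), and LTBP3, which binds latent TGF-beta, was lower in SM against DSM (-0.19, adjusted p = 0.0051). The calls for BMP5 against untreated were lost without SM replicate 2 or 3, DSM replicate 3, or untreated replicate 1, 2 or 3 (adjusted p from 0.05054 to 0.2465), and against DSM without SM or DSM replicate 2 or 3 (from 0.07452 to 0.124). Those for TWSG1 were lost without SM replicate 1 or 2 or any untreated replicate (from 0.0647 to 0.217), those for LTBP3 without SM or DSM replicate 3 (0.05048 and 0.0774), and those for GDF11 without SM replicate 2 or 3, DSM replicate 2 or 3 or any untreated replicate (from 0.05215 to 0.282).

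Of 12 other tested receptors and co-receptors, 1 was higher and 1 lower in SM against untreated with the block, and 0 higher and 1 lower in SM against DSM. RGMA, a BMP co-receptor, was lower in SM with the block against untreated (-0.29, adjusted p = 0.0029) and against DSM (-0.29, adjusted p = 0.0027), with 26.4, 16.0 and 15.8 CPM in SM, 32.6, 18.3 and 20.1 CPM in DSM and 30.5, 19.7 and 20.3 CPM in untreated replicates 1 to 3. Its call against untreated was lost without untreated replicate 3 (adjusted p = 0.0654) and its call against DSM in none of the 9. ACVR2B, a type II activin receptor, was higher in SM against untreated (0.29, adjusted p = 0.0261), a call that ended without SM replicate 2 or 3 or untreated replicate 2 or 3 (adjusted p = 0.0691, 0.2395, 0.192 and 0.292). TGFBR2, the type II TGF-beta receptor and the receptor with the most reads, had 128, 119.8 and 120.3 CPM in SM, 134, 127 and 123 CPM in DSM and 132, 131 and 124 CPM in untreated replicates 1 to 3 and was not called.

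None of the 5 tested SMAD transducers was called in any comparison by edgeR's quasi-likelihood test, with or without the block, and 0 of them had an unadjusted p below 0.05. SMAD2 had 47.0 to 50.02 CPM in SM, 48.0 to 52.8 CPM in DSM and 47.9 to 49.9 CPM in untreated libraries. SMAD4, the shared partner, was singled out after its values were seen: it averaged 0.367 ± 0.0194 CPM in SM, 0.474 ± 0.218 CPM in DSM and 0.370 ± 0.129 CPM in untreated cells (SD, n = 3 each), while SMAD1, SMAD3 and SMAD5 averaged 37.9, 47.8 and 39.3 CPM over all libraries. The ID protein partner TCF3, which encodes the E proteins E12 and E47, had 382 to 419 CPM in SM, 390.3 to 413 CPM in DSM and 387 to 427 CPM in untreated libraries and was not called. USP9X, a deubiquitinase that acts on SMAD4, had 237 to 263 CPM in SM, 235 to 256 CPM in DSM and 233 to 252 CPM in untreated libraries and was not called.

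None of the 2 tested ID protein partners and none of the 14 other tested inhibitors and ubiquitin ligases passed (0 called, edgeR's quasi-likelihood test). At an unadjusted p below 0.05 in the blocked test, SM against untreated had 2 of the 14, beside 2317 of all 15619 tested genes. SM against DSM had 2 of the 14, beside 2535 of all 15619. Both are near the share over all tested genes.

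Of the 15 other tested target genes, 0 were higher and 1 lower in SM against untreated with the block, and 1 higher and 1 lower in SM against DSM. TNC, which encodes the matrix protein tenascin C, was lower in SM with the block, with log2 fold changes of -0.50 against untreated (adjusted p = 0.0003) and -0.55 against DSM (adjusted p = 0.0001), and both calls held without each of the 9 libraries. TNC had 541, 215 and 197 CPM in SM, 679, 346 and 308 CPM in DSM and 715, 338 and 272 CPM in untreated replicates 1 to 3. SNAI1, a repressor of epithelial genes, was higher in SM than in DSM (0.18, adjusted p = 0.0430), and its call ended without SM replicate 1 or 3, any DSM replicate or any untreated replicate (adjusted p from 0.0667 to 0.2275).

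**Figure D4:**
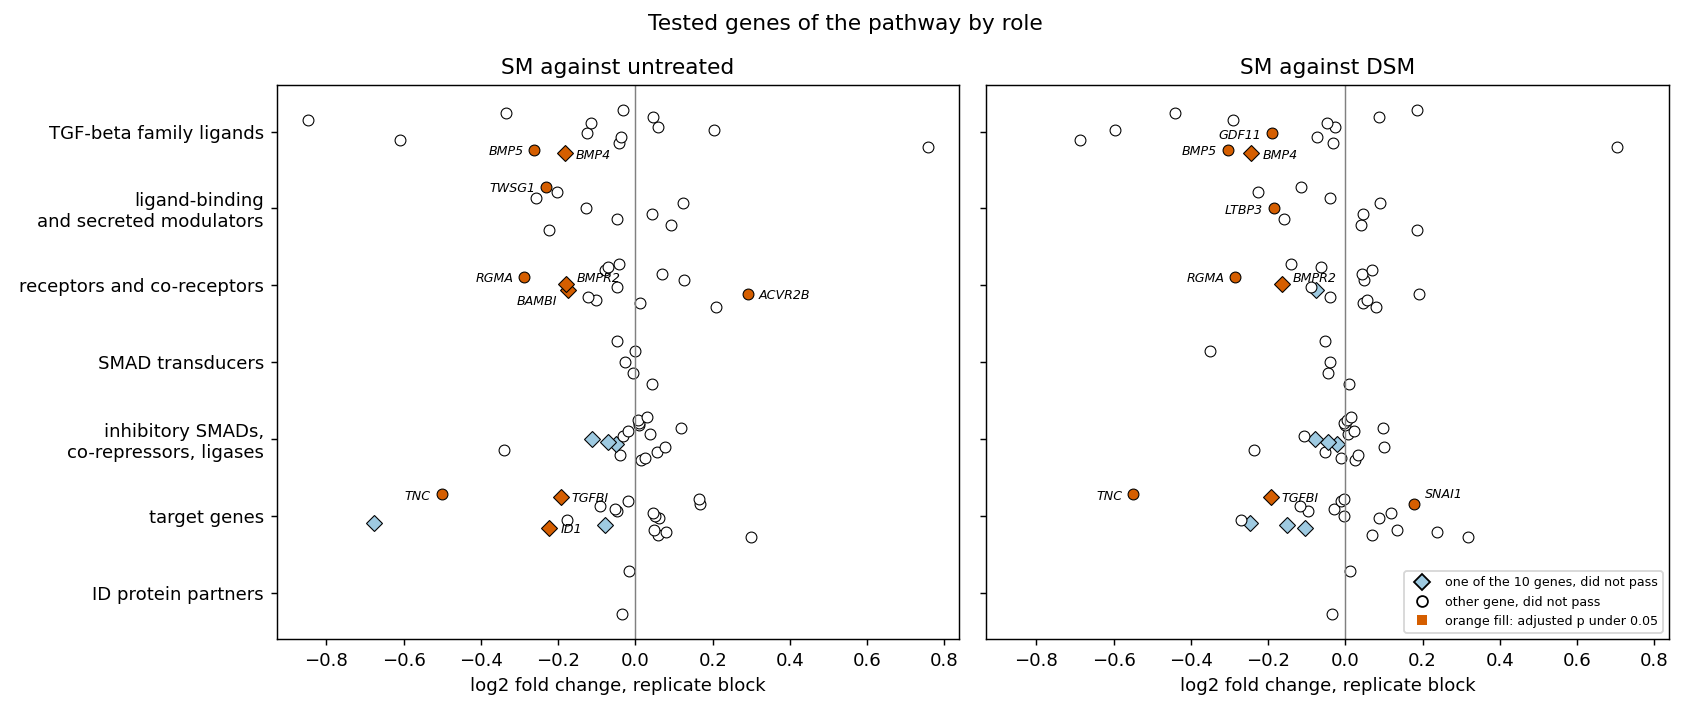
Blocked log2 fold change of the tested pathway genes by role, for SM against untreated and SM against DSM; diamonds are the 10 genes, circles the other 70, and orange fill marks an adjusted p under 0.05. Orange points lie on both sides of 0 among receptors in the left panel, while the SMAD transducers and the inhibitors hold none in either panel.

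BMP2, NOG, GREM1, INHBA, FST, BMPR1B, SMAD9 and ID4 are among 23 listed genes with too few reads to be tested, each at 0.127 CPM or less on average.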

How the data were processed

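Polyadenylated RNA of 9 SW620 cultures was sequenced after TRIzol extraction and NuGEN Universal Plus library preparation, per the labels' protocols. The submitters' processing notes name the build hg38 and, without roles or order, the tools TopHat2 2.1.1, featureCounts 2.0.0, cutadapt 3.4, bcl2fastq 2.20.0.422, DESeq2 1.26.0, MultiQC 1.10.1 and FastQC 0.11.9. Annotation, strand setting and the handling of multi-mapping reads: not given in the sources used here. The deposited raw counts, whole-number reads per gene with no normalization, are the values tested. A normalized signal was also deposited by the authors. It equals the counts over 1 size factor per library and served only for that check.

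Counts were analysed in edgeR 4.0.16 (R 4.3.3). The filterByExpr filter (a minimum count of 10 and a minimum total of 15) kept 15619 genes, and TMM factors scaled the libraries. A robust quasi-likelihood fit of all 9 libraries had group as its only term. Its F tests were two-sided and adjusted by Benjamini-Hochberg over every tested gene, with a threshold of 0.05. The SE is the log2 fold change over the square root of F, and intervals are at 95%. CPM values are relative to the reads of tested genes, and log2 CPM had a prior count of 2. The scripts were tested on simulated data with 200 changed genes.

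Replicates carry the numbers 1 to 3 in each group, and the labels give no meaning to a number. Deviations from the group means correlated at 0.227 to 0.582 in the 9 same-numbered pairs and at -0.404 to 0.161 in the 18 other pairs. Every same-numbered pair exceeded 0.1, so the fit with the number as a replicate block stands beside each result that it changes. Within groups the libraries differed beyond sampling noise, with a chi-square per degree of freedom of 6.50 to 34.0. P-values measure the spread between cultures of 1 line.

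As alternatives, TMM was replaced by library totals or DESeq2 size factors, the filter was dropped or made stricter, edgeR was replaced by DESeq2 1.42.0 or limma voom (limma 3.58.1), the fit was limited to the 6 libraries compared or made without robust estimation, the block was added, and each library, or all numbered 1, was left out. The 10 genes, the list of 103 pathway genes and the marker lists were chosen with earlier results of these data known. The text names all 10 genes, listed pathway genes called in a fit, and the gene with the most reads in each role, except that 1 listed gene and 1 gene of similar pattern are not reported here. Promoter windows are those of RefSeq on GRCh38.p14, whose gene records also give the coordinates.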

Additional observations from a re-analysis of the deposited data

How the results depend on the processing

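Calls depended on the replicate block and on single libraries. With group alone, SM against untreated gave 3 called genes and 0 members. The gene count was 5 with no filter on low counts, 14 in DESeq2 and 0 in a fit of only the 6 libraries compared. With the replicate block, 5 members and 428 genes passed, and 5 members again in the blocked DESeq2 (385 genes), voom (438), DESeq2 size factor (427), library total (390) and 6-library (604) fits. Without the libraries numbered 1, 73 genes passed unblocked, and 3 members and 308 genes blocked. Leaving out 1 library, members called ranged from 0 to 5 and genes from 0 to 569 over both fits. For DSM against untreated, 0 genes passed, but 4 in the blocked 6-library fit and 1 in the blocked fit without the libraries numbered 1. In SM against DSM, 0 genes passed with group alone, 3 with no filter and 11 in DESeq2. The block gave 3 members and 606 genes, blocked DESeq2 2 and 510, blocked voom 3 and 590, DESeq2 size factors 3 and 603, library totals 3 and 529, and the 6 libraries 2 and 394. Without the libraries numbered 1 there were 2 members and 186 genes unblocked, and 3 and 627 blocked. Leaving out 1 library gave 0 to 3 members and 0 to 846 genes. The cause of these shifts was not tested.

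Of 340 member estimates under alternatives per comparison, 6 changed sign in SM against untreated, 38 in DSM against untreated and 8 in SM against DSM. In DSM against untreated, TGFBI turned to 0.0054 with library totals, 0.00026 with the stricter filter, 0.0069 with library totals and the block, and 0.014 and 0.016 without the libraries numbered 1 (unblocked and blocked). BMPR2 turned to 0.00041 and 0.00036, and SMAD6 to 0.0017 and 0.0019, in those last 2 fits. With 1 library left out, log2 fold changes of SM against untreated ran from -0.27 to 0.070 for ID2, -0.16 to 0.033 for SKIL, -0.16 to 0.028 for SMAD6 and -1.10 to 0.060 for TNC. Those of DSM against untreated ran from -0.12 to 0.22 for ID2, -0.10 to 0.23 for BMP4, -0.24 to 0.028 for BAMBI, -0.12 to 0.098 for BMPR2, -0.050 to 0.036 for TGFBI, -0.11 to 0.071 for SMAD6, -0.098 to 0.044 for SMAD7 and -0.087 to 0.039 for SKIL. Those of SM against DSM ran from -0.13 to 0.027 for SMAD6, -0.13 to 0.063 for SKIL, -0.35 to 0.049 for ID2, -0.19 to 0.066 for BAMBI and -0.58 to 0.016 for RGMA. ID3, with 29 to 78 reads per library, has the widest interval of the 10 genes in the blocked fit.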
